A study of Mus musculus with 10 samples.

Results

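The TNF and NF-kB pathway was followed through 36 genes, chosen by symbol among the 53379 genes of the count table. They comprise 5 NF-kB subunits, 6 members of the IkB family, 8 genes for kinases and the kinase scaffold NEMO, 5 genes for a ligand and receptors, 6 TRAF and cIAP genes, 4 genes of feedback and survival, and 2 adhesion targets. All 36 were found in the table by their Ensembl identifier. The RNA came from MC38 cells, a mouse colon carcinoma line, that had been implanted in C57BL/6J mice and recovered from the tumors after 21 days by sorting for the fluorescent protein dTomato and against CD45, the surface protein common to leukocytes. Libraries of polyadenylated RNA were made from 5 mice fed a control diet and 5 fed a high-fat diet, 1 library per mouse. The diets, the time spent on them, and the sex and age of the mice are not described further in the sources used here. The comparison asks how the tumor cells differ when the host eats a high-fat diet, and every change below is high-fat minus control.

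NF-kB is a family of dimeric transcription factors that waits in the cytoplasm, bound to inhibitors of the IkB family. When TNF or a related ligand engages its receptor, TRAF adaptors, cIAP ubiquitin ligases and the kinase RIPK1 assemble a platform that activates the IkB kinase complex, which marks IkB for destruction and frees the dimers to enter the nucleus. Several of the genes then switched on encode the inhibitors themselves, so the pathway limits its own activity, while a slower noncanonical branch runs through the kinase NIK and the processing of the NF-kB2 precursor. In tumor cells the pathway is known for survival signalling, for adhesion molecules and for the chemokines and cytokines by which a tumor communicates with immune cells.

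Several of these genes have, close to their start, letters that match the element NF-kB is known to bind, and 5 such promoters are shown because they belong to a subunit and to inhibitors whose values are described below. The window searched ran from 250 bases before to 50 bases after each RefSeq start on GRCm38.p6, and 29 of the 36 genes had at least 1 window. Nfkb1, Relb, Nfkbiz, Ikbkb, Ripk2, Cd40 and Vcam1 had none. The search used the kappa B consensus, which reads GGG, a purine, any pair of bases, a pair of pyrimidines and CC, on both strands. Each sequence below is the stretch of 150 bases that ends just before the start, written 5′ to 3′ along the gene, with capitals marking the matches.
Nfkbie, chr17:45555550-45555699, plus strand: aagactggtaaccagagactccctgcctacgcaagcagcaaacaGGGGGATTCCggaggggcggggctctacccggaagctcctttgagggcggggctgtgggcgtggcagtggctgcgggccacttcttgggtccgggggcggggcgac
Nfkbia, chr12:55492648-55492797, minus strand: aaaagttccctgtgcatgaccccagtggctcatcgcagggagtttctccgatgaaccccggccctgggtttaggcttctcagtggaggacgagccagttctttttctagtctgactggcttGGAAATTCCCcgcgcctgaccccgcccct
Nfkb2, chr19:46304587-46304736, plus strand: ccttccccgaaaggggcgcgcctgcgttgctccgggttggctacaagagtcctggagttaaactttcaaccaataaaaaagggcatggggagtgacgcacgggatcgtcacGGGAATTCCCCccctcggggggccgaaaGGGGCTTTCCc
Tnip1, chr11:54962941-54963090, minus strand: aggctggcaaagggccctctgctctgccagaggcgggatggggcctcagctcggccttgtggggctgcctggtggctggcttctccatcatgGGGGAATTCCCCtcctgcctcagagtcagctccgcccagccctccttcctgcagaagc
Tnfaip3, chr10:19015411-19015560, minus strand: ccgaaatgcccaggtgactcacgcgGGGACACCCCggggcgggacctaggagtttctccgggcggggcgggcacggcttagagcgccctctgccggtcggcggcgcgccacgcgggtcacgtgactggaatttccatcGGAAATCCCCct
The match of Nfkbie, GGGGGATTCC, began 106 bases before the start, and that of Nfkbia, GGAAATTCCC, began 29 bases before it. The table gives Nfkb2 3 starts, and only the first is shown. There a pair of overlapping matches began 39 and 38 bases upstream and a further one, GGGGCTTTCC, began 11 bases upstream. Windows of its other 2 starts held further matches. The 3 matches of Tnip1 overlap in a single stretch. Tnfaip3 had one match 125 and one 12 bases upstream. A match was found for 10 of the 29 genes (34.5%), against 9.55% of the 27025 genes with a window of the same length, and 8.46% of all 32851 windows held one. The other 5 genes with a match were Rel, Nfkbid, Bcl3, Traf3 and Tnfaip2. These are matches of letters and not measured binding.

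The control libraries were deeper, at 17050797 to 18653705 counts each, than the high-fat ones, at 16513388 to 17154050 (exact permutation test of the means, two-sided, p = 0.0317). At these depths a count of 0 allows a level of up to 3 counts, between 0.158 and 0.183 CPM (a gene's counts scaled to a common library size), and such limits cover counting error only. Of the markers that could check the sort, 7 epithelial genes together reached only 1.42 to 6.7 CPM in control and 1.17 to 3.18 CPM in high-fat libraries, and Krt18, Krt19, Epcam, Cldn4 and Vil1 were at 0 in at least 1 library. Of the epithelial genes 1 of 7 passed the expression filter, so the carcinoma label was not borne out by these markers. The 9 fibroblast markers summed to between 1196 and 2167 CPM over the 10 libraries. Dcn (means of 967 and 1036 CPM, control first) and Pdgfra (367 and 400 CPM) made up most of that sum. Fap (1.19 and 1.76 CPM), Thy1 (3.08 and 3.07 CPM), Col1a2 (8.71 and 14.8 CPM) and Lum (19.2 and 9.15 CPM) were low. Pdgfrb, Col1a1 and Postn lay between. The 12 macrophage markers summed to between 61.5 and 418 CPM in control and between 30.4 and 65.5 CPM in high-fat libraries, with control mice 3 (368 CPM) and 4 (418 CPM) highest, and none of the 12 was at 0 in any library. All 12 were lower on the high-fat diet at an unadjusted p under 0.05 in edgeR, where 6.62% of all genes were lower. None of the 12 passed the adjusted threshold of 0.05 (lowest edgeR adjusted p = 0.108). The diet groups did not overlap for 3 of the 12, where 1.1% of all genes lay lower without overlap. The 10 pan-leukocyte markers ran from 25.6 to 240 CPM against 19.3 to 62.3 CPM. They include Ptprc, the gene of CD45 itself, at 1.33 to 23.8 CPM in control and 0.715 to 8.73 CPM in high-fat libraries. The summed markers of T and NK cells ran from 0.584 to 21.7 and from 1.61 to 13.7 CPM, of B cells from 1.01 to 7.71 and from 1.43 to 4.18, of dendritic cells from 11.4 to 28.3 and from 8.81 to 13.9, of neutrophils from 0.0569 to 2.27 and from 0.119 to 0.427, of pericytes from 98.1 to 132 and from 123 to 181, and of adipocytes from 7.32 to 20.3 and from 3.18 to 9.11 CPM, control first. Cspg4 alone made up most of the pericyte sum (means of 115 and 142 CPM), with Acta2 next at 1.33 and 1.6 CPM. Fabp4 alone made up most of the adipocyte sum (means of 11.3 and 4.74 CPM). The other adipocyte markers, Adipoq, Plin1, Cidec, Lep and Cfd, were at 0 in at least 1 library and did not pass the filter. In RNA from sorted bulk cells, fewer cells of a type and less RNA per cell cannot be told apart.

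Most of the pathway was expressed in these cells. Of the 36 genes, 34 passed the expression filter and were tested, and Tnf and Cd40 did not. Compared per kilobase of exon, Nfkbia stood highest at 135 CPM per kilobase in control mice, followed by Nfkb2 at 102, Ltbr at 66.8, Rela at 62.5 and Tnfrsf1a at 59. Toward the low end, Rel was at 1.65, Ikbke at 1.4 and Icam1 at 0.699 CPM per kilobase, and Tnf (0.53) and Cd40 (0.127) were lowest. The order depends on the length used. With the longest transcript in place of all annotated exons, Ikbkb moved from 2.75 to 10.8, Nfkb1 from 15.6 to 45.4 and Vcam1 from 36 to 78 CPM per kilobase.

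**Figure D1:**
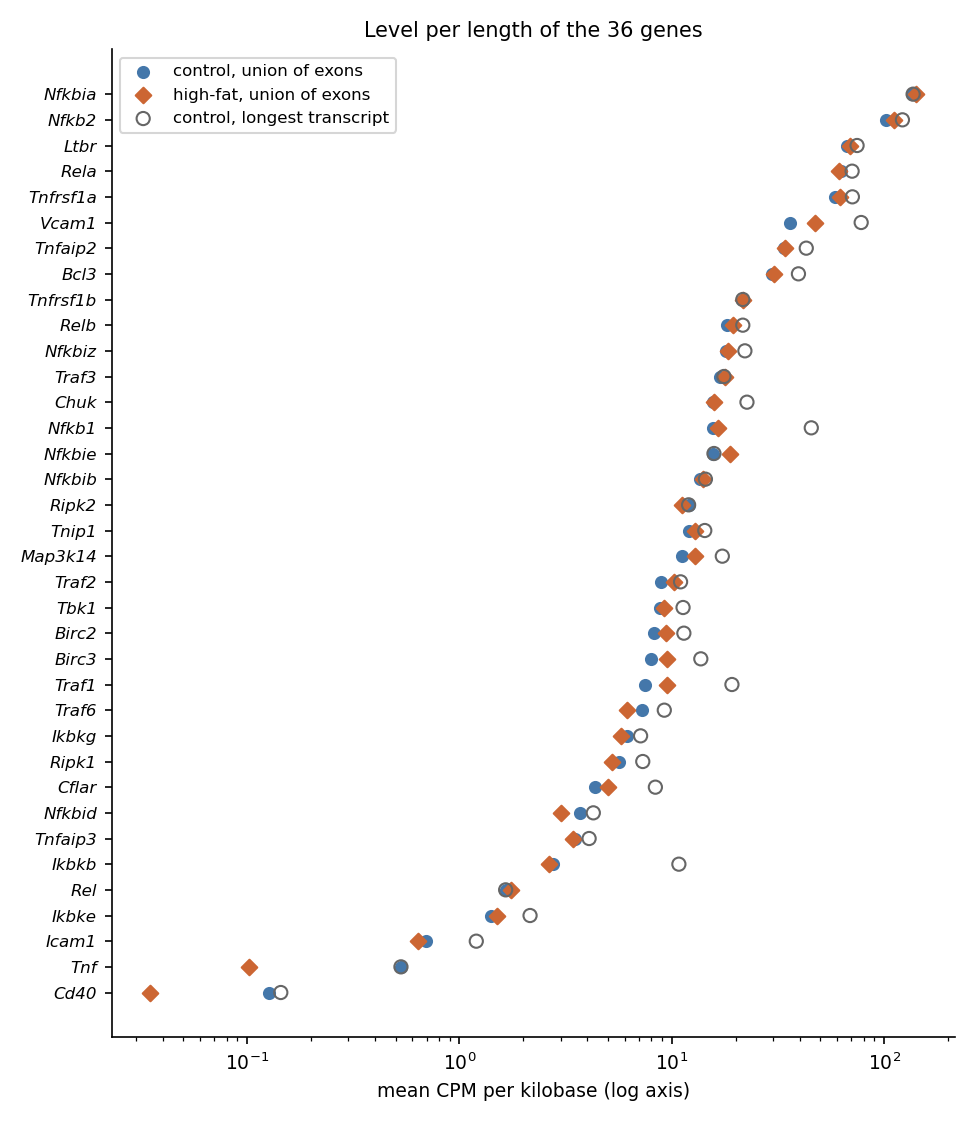
Mean level of each of the 36 genes per kilobase, on a log axis, with genes ordered by the control level over all annotated exons (blue, control; orange, high-fat; open circles, control with the longest transcript as length). Nfkbia and Nfkb2 stand at the top, Tnf and Cd40 at the bottom, and the diets lie close together for most genes between.

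No gene of the pathway passed the threshold when the diets were compared over all 14337 genes tested in edgeR's quasi-likelihood test (0 of 34, with Benjamini-Hochberg adjustment at 0.05, where 0.0628% of all genes passed). Vcam1, Nfkbie, Traf1 and Birc3 were higher on the high-fat diet and Traf6 was lower at an unadjusted p under 0.05. That is 5 of 34, or 14.7%, against 12.1% of all genes tested, so the share lies near the background. By direction it was 4 of 34 (11.8%) against 5.45% for higher genes and 1 of 34 (2.94%) against 6.62% for lower ones. The diet groups did not overlap for Nfkbie and Traf1, both higher, where 2.18% of all genes did not overlap. DESeq2 passed 2 of the 34, Nfkbie (adjusted p = 0.0303) and Vcam1 (adjusted p = 0.0365), with 2.2% of all genes passing, while limma-voom passed 0 of 34 with 0.0349% of all genes passing and put 5 at an unadjusted p under 0.05 (11.9% of all genes). Without control mice 3 and 4, an alternative added after seeing the data, 5 were higher and 1 lower at that level, where 15.7% of all genes were.

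With all mice in edgeR, small positive changes outnumbered negative ones among the 34 genes. The log2 change was positive for 25 of the 34 genes and its median was 0.07, against 51.4% positive and a median of 0.01 over all genes tested. High-fat mouse 3 carried part of this: without it 19 of the 34 were positive and the median was 0.04. The number positive was 22 with limma-voom and with the replicate block, 21 with library size as a covariate, and 27 without high-fat mouse 1.

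**Figure D2:**
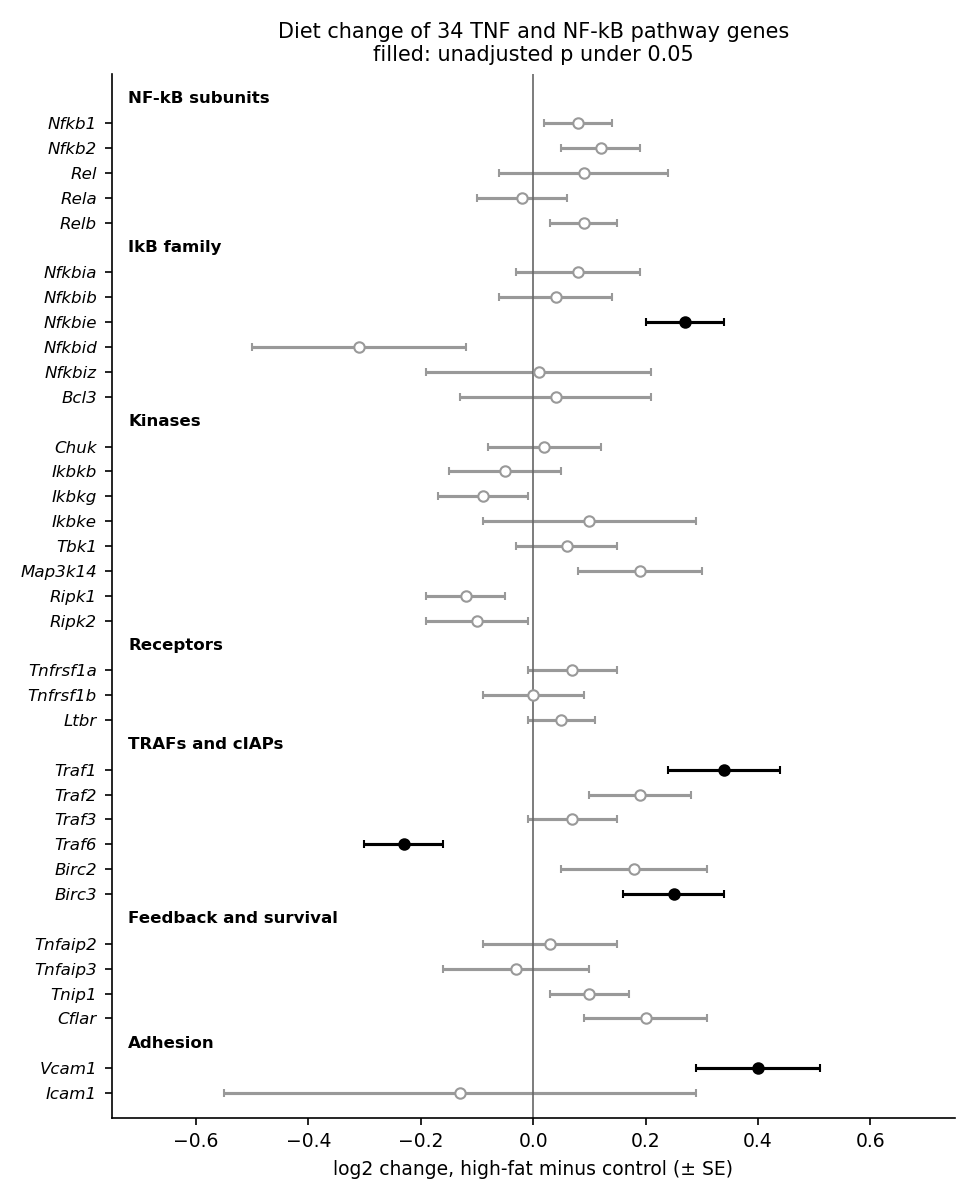
Log2 change of each of the 34 tested genes, high-fat minus control, with its standard error, grouped by role; filled points have an unadjusted p under 0.05. Vcam1, Nfkbie, Traf1 and Birc3 lie to the right and Traf6 to the left, while the subunits and kinases sit close to 0.

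The receptors through which TNF-family ligands act were present at similar levels on both diets. Tnfrsf1a, the main signalling receptor for TNF, stood at 153 ± 12.6 CPM with the control diet and 161 ± 12.7 CPM with the high-fat diet (mean ± SD, n = 5 mice each, as throughout), a log2 change of 0.07 (SE 0.08). Tnfrsf1b, the second TNF receptor, was at 82.3 ± 6.35 and 82.5 ± 10.1 CPM (log2 change 0.00, SE 0.09). Ltbr, the lymphotoxin receptor that feeds the noncanonical branch, lies beside Tnfrsf1a on chromosome 6 and had the highest level per kilobase of the receptors, 66.8. Its CPM values were 156, 163, 158, 154 and 155 in control mice 1 to 5 and 169, 173, 144, 165 and 166 in high-fat mice 1 to 5. High-fat mouse 3 was the lowest of all 10 for Ltbr and the groups overlapped, at a log2 change of 0.05 (SE 0.06).

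The ligand gene Tnf and the receptor gene Cd40, both known mainly from immune cells, were at the edge of detection. Tnf had 6, 4, 16, 43 and 10 counts in control mice 1 to 5 and 5, 4, 2, 0 and 3 in high-fat mice 1 to 5. Cd40 had 5, 3, 9, 19 and 3 counts in the controls and 2, 4, 0, 2 and 2 in the high-fat mice. Control mouse 4 was highest and control mouse 3 next for both genes, and the groups overlapped. The same 2 mice had the highest sums of macrophage markers, and all 79 control counts of Tnf compare with 14 in the high-fat mice. With the filter lifted, the edgeR log2 change was -2.33 (SE 0.69, adjusted p = 0.283) for Tnf and -1.80 (SE 0.63, adjusted p = 0.34) for Cd40. The part of other cells in these counts was not tested.

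**Figure D3:**
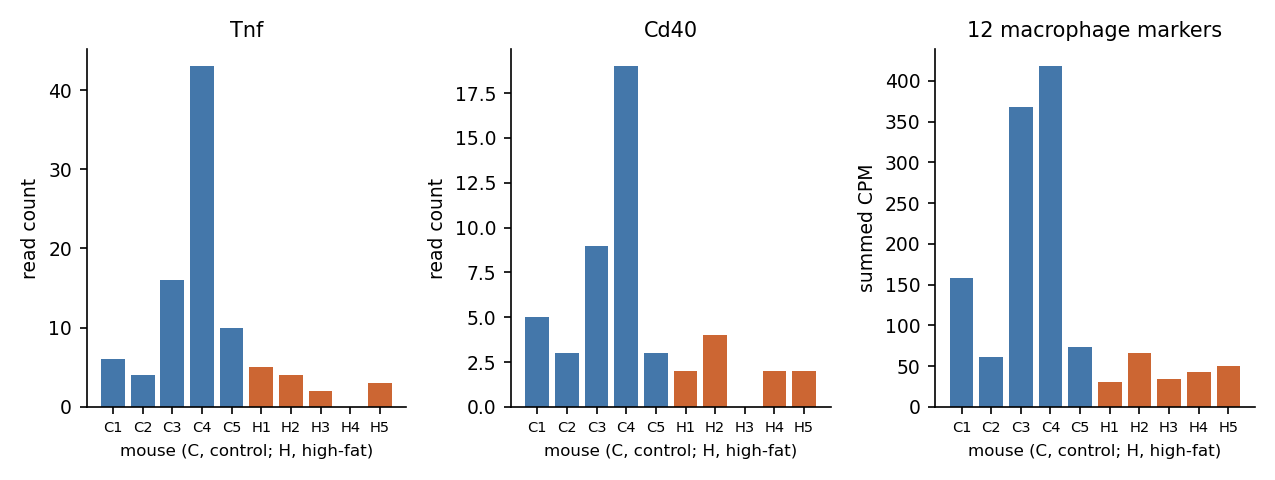
Read counts of Tnf and Cd40 and the summed CPM of 12 macrophage markers in each of the 10 libraries (C, control, blue; H, high-fat, orange; bars start at 0). Control mouse 4 is highest in all 3 panels, with 43 counts of Tnf, 19 of Cd40 and 418 CPM of markers, and control mouse 3 is next.

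The adaptors and ubiquitin ligases that sit under the receptors held 3 of the 5 genes with an unadjusted p under 0.05. Of the 6 in this class 2 were higher and 1 lower, where 12.1% of all genes reached that level. A class of 6 is too small for its share to be read. Traf1, which joins TRAF2 at TNF-family receptors and is itself an NF-kB target (chr2:34941750-34961772), was at 72.8, 67.1, 59.4, 64.8 and 65.8 CPM in control mice 1 to 5 and at 75.3, 80.9, 106, 81.2 and 74.4 CPM in high-fat mice 1 to 5. Every high-fat value lay above every control value, and high-fat mouse 3 stood well above the other 4. The log2 change was 0.34 (SE 0.10, adjusted p = 0.201), or 1.27-fold, and without high-fat mouse 3 it was 0.24 (adjusted p = 0.32).

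Birc3, which encodes cIAP2 and is a textbook NF-kB target (chr9:7848699-7873186), was at 39.0, 40.4, 42.1, 36.4 and 41.8 CPM in control mice and at 41.2, 50.8, 56.3, 44.7 and 44.3 CPM in high-fat mice. High-fat mouse 1 fell within the control range and high-fat mouse 3 was again the highest. The log2 change was 0.25 (SE 0.09, adjusted p = 0.276). Its neighbor on chromosome 9, Birc2, encodes cIAP1 and was at 37.9 ± 2.68 and 43 ± 9.43 CPM, with a log2 change of 0.18 (SE 0.13) that was 0.07 without high-fat mouse 3.

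Traf6, an adaptor used by interleukin-1 and Toll-like receptors (chr2:101678429-101701669), went the other way. It was at 51.3, 59.8, 54.5, 59.2 and 59.6 CPM in control mice and at 47.1, 45.9, 47.9, 49.6 and 51.4 CPM in high-fat mice. Control mouse 1, at 51.3 CPM, and high-fat mouse 5, at 51.4 CPM, were the only pair that crossed. The log2 change was -0.23 (SE 0.07, adjusted p = 0.199). Among the other TRAF genes, Traf2, which recruits the cIAPs, was at 45.4 ± 3.97 and 52 ± 6.39 CPM (log2 change 0.19, SE 0.09, adjusted p = 0.435).

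Traf3, which holds the noncanonical kinase NIK in check, had the highest level per kilobase of this class over all exons, at 16.9 in control mice. With the longest transcript as length that place went to Traf1, at 19.2 against 17.6. Traf3 was at 128, 119, 137, 123 and 114 CPM in control mice and at 111, 138, 149, 128 and 127 CPM in high-fat mice. The groups overlapped, with a high-fat mouse at each end, and the log2 change was 0.07 (SE 0.08).

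**Figure D4:**
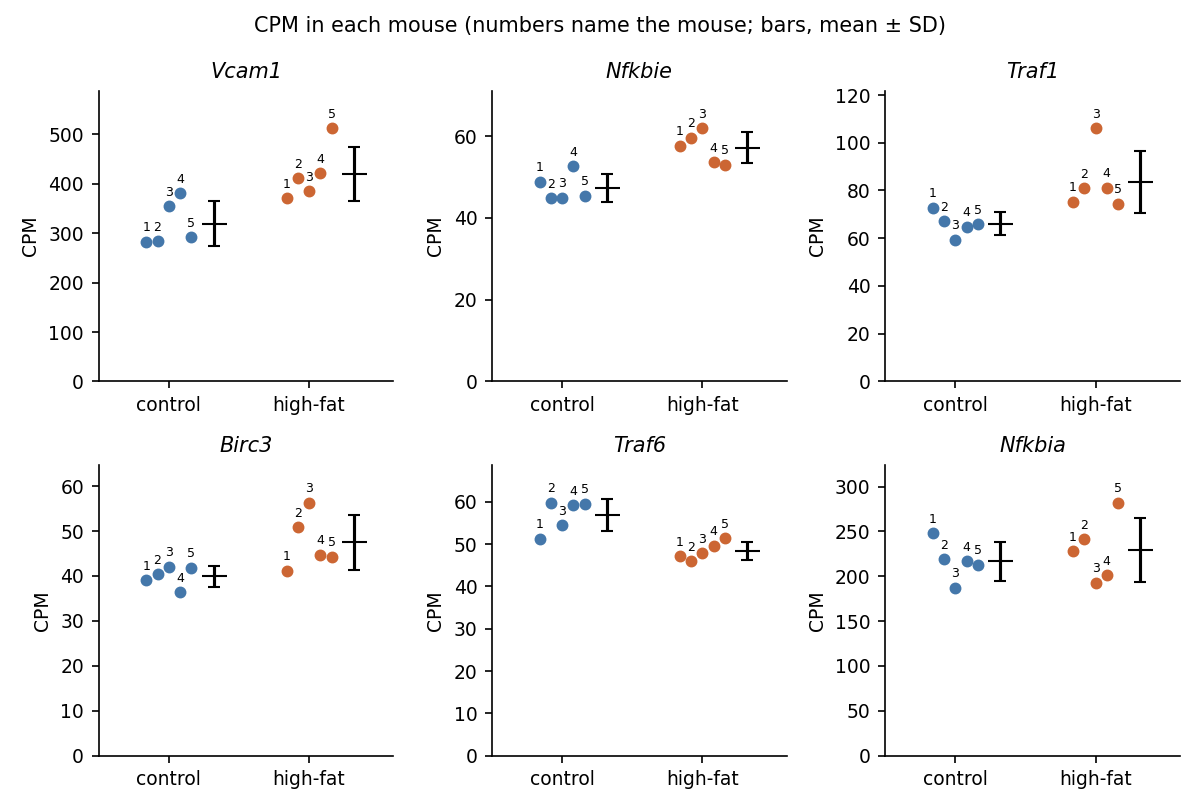
CPM of 6 genes in each mouse, with the mouse number beside each point and the mean ± SD of 5 mice at the right of each group; axes start at 0. The diets do not overlap for Nfkbie and Traf1, cross by 1 pair of mice for Traf6 and by 1 high-fat mouse for Vcam1, and overlap broadly for Nfkbia.

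The kinases that carry the signal did not pass at an unadjusted p under 0.05, 0 of 8, where 12.1% of all genes did. A class of 8 is too small for that share to be read. The log2 changes of the 8 lay between -0.12 and 0.19, with adjusted p of at least 0.534 in edgeR. Chuk, which encodes the IKK-alpha subunit, had the highest level per kilobase of the class and was at 81.1, 81.2, 87.2, 77.2 and 69.4 CPM in control mice and at 64.1, 85.1, 94.0, 73.6 and 84.1 CPM in high-fat mice. The high-fat mice spanned a wider range than the controls on both sides. Ikbkb, the IKK-beta subunit that drives the canonical branch, was at 52.5 ± 4.64 and 50.6 ± 7.79 CPM. Ikbkg, the scaffold NEMO, was at 49.8 ± 2.58 and 46.7 ± 4.62 CPM, and its exons overlap G6pdx on the opposite strand, which had 26160 counts against 8368.

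Map3k14, which encodes NIK, had the largest positive change among the kinases, from 73.7 ± 10.2 to 84.2 ± 10.4 CPM (log2 change 0.19, SE 0.11, adjusted p = 0.534). Ripk1, the kinase of the TNF receptor platform, was at 47.3 ± 2.8 and 43.5 ± 2.99 CPM (log2 change -0.12, SE 0.07), and its exons overlap Serpinb6a on the opposite strand. Ripk2, which serves the bacterial sensors NOD1 and NOD2, was at 33.7 ± 4.01 and 31.6 ± 2.29 CPM. Of the IKK-related kinases, which act mainly toward interferon genes, Tbk1 was at 34.3 ± 4.51 and 35.8 ± 1.87 CPM and Ikbke at 12.6 ± 2.17 and 13.5 ± 4.13 CPM.

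The transcription factor subunits differed little between the diets. None of the 5 reached an unadjusted p under 0.05, where 12.1% of all genes did, a share that 5 genes are too few to be read against. Their log2 changes lay between -0.02 and 0.12. Rela, the subunit p65 that carries the activation domain of the canonical dimer, was at 216, 196, 178, 185 and 186 CPM in control mice and at 168, 204, 204, 179 and 191 CPM in high-fat mice. High-fat mouse 1 was the lowest and control mouse 1 the highest of the 10, and the log2 change was -0.02 (SE 0.08, adjusted p = 0.944). Nfkb1, its partner p50, was at 198, 181, 175, 203 and 185 CPM in control mice and at 192, 200, 196, 198 and 211 CPM in high-fat mice. The high-fat values of Nfkb1 sat in the upper part of the control range or, for mouse 5, above it, at a log2 change of 0.08 (SE 0.06).

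Nfkb2, the precursor of p52 in the noncanonical branch, had the highest level per kilobase of the subunits. It was at 494, 496, 428, 465 and 463 CPM in control mice and at 509, 511, 535, 490 and 500 CPM in high-fat mice. High-fat mouse 4 lay within the control range and the other 4 lay above it, at a log2 change of 0.12 (SE 0.07, adjusted p = 0.524). Its exons overlap Psd on the opposite strand and 18.5% of its windows of 50 bases occur in transcripts of other genes on either strand, so its level is less certain. Relb, the partner of p52, was at 70.7 ± 4.19 and 75.2 ± 3.83 CPM, and Rel, known mainly from lymphocytes, at 12.3 ± 2.19 and 13.1 ± 2.6 CPM.

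Among the inhibitors, Nfkbie stood apart from its relatives. It encodes IkB-epsilon, an inhibitor that NF-kB induces as part of its feedback (chr17:45555703-45563169). Nfkbie was at 48.9, 44.9, 45.0, 52.7 and 45.4 CPM in control mice and at 57.7, 59.6, 61.9, 53.6 and 53.0 CPM in high-fat mice. The groups did not overlap, although control mouse 4 and high-fat mouse 5 were close. The log2 change was 0.27 (SE 0.07, adjusted p = 0.183), or 1.21-fold, and it stayed between 0.24 and 0.31 with each mouse left out in turn.

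Nfkbia, the gene of IkB-alpha and the fastest feedback inhibitor, showed no such separation. It was at 248, 219, 187, 217 and 213 CPM in control mice and at 228, 241, 193, 201 and 282 CPM in high-fat mice. The groups overlapped almost completely, with high-fat mouse 5 highest, and the log2 change was 0.08 (SE 0.11, adjusted p = 0.839). Nfkbib, which encodes IkB-beta, was at 29.6 ± 1.76 and 30.5 ± 4.21 CPM, and its exons overlap Sirt2 on the opposite strand, which had more counts (9216 against 5199). The difference between Nfkbie and the other inhibitors was not tested.

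The atypical IkB proteins act in the nucleus, and their genes varied more between the high-fat mice than those of the other 3 inhibitors, with coefficients of variation of 27.5% for Nfkbid, 32.2% for Nfkbiz and 26.3% for Bcl3. Nfkbid, which encodes IkB-NS, was at 8.71 ± 1.84 and 7.05 ± 1.94 CPM (log2 change -0.31, SE 0.19, adjusted p = 0.583). Nfkbiz, which encodes IkB-zeta, a cofactor for secondary inflammatory genes, was at 91 ± 13.9 and 91.8 ± 29.6 CPM, and the high-fat mice ran from 55.9 CPM in mouse 5 to 133 CPM in mouse 2. Bcl3, a coactivator of p50 and p52 homodimers that lies near Relb on chromosome 7, was at 73.1 ± 5.39 and 75 ± 19.7 CPM. High-fat mouse 5 had the lowest Bcl3 of the 10, at 42.1 CPM, and high-fat mouse 2 the highest, at 92.7 CPM.

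The feedback and survival genes did not pass at an unadjusted p under 0.05, 0 of 4, where 12.1% of all genes did. A class of 4 is too small for that share to be read. Tnfaip3 encodes A20, the ubiquitin editor that shuts the TNF receptor platform down, and was at 25.3 ± 3.25 and 24.9 ± 4.95 CPM (log2 change -0.03, SE 0.13). Tnip1, a binding partner of A20, was at 42.6 ± 2.43 and 45.7 ± 3.09 CPM (log2 change 0.10, SE 0.07). Cflar, which encodes the caspase-8 inhibitor c-FLIP, was at 55 ± 5.19 and 63.2 ± 10.1 CPM (log2 change 0.20, SE 0.11), and without high-fat mouse 3 its change was 0.11. Tnfaip2, a TNF-induced gene beside Traf3 on chromosome 12, had the highest level per kilobase of these 4, at 33.6 in control mice. It was at 200, 189, 168, 136 and 144 CPM in control mice and at 133, 171, 188, 176 and 186 CPM in high-fat mice. The groups overlapped over nearly their whole range and the log2 change was 0.03 (SE 0.12).

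Of the 2 adhesion targets, Vcam1 was abundant and Icam1 nearly silent. Vcam1, whose product binds the leukocyte integrin VLA-4 (chr3:116109949-116129688), was at 283, 284, 355, 381 and 292 CPM in control mice and at 371, 411, 385, 421 and 512 CPM in high-fat mice. High-fat mouse 1, at 371 CPM, lay below control mouse 4, at 381 CPM, and the other 4 high-fat mice lay above all controls. The log2 change of 0.40 (SE 0.11, adjusted p = 0.197), or 1.32-fold, was the largest of the 34 genes.

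The Vcam1 result moved with the mice and the tool. Without control mice 3 and 4, which had the highest Vcam1 and the highest macrophage sums of the controls, its log2 change was 0.55 and edgeR's adjusted p was 0.0272, where 1.89% of all genes passed. Leaving out the 2 highest controls widens the difference by construction. Vcam1 is also known from activated endothelium, and 2 of the 4 endothelial markers tested, Cdh5 and Vwf, were higher on the high-fat diet at an unadjusted p under 0.05, where 5.45% of all genes were higher. The 11 endothelial markers summed to between 23 and 33 CPM in control and between 27.8 and 46.5 CPM in high-fat libraries, with Tek, Tie1, Emcn, Robo4 and Cldn5 at 0 in at least 1 library. Pecam1, the most abundant of the 4 and a junction protein of endothelium, was at 17.2 ± 3.72 and 18.2 ± 2.74 CPM (log2 change 0.08, SE 0.15). Cdh5, the cadherin of the same junctions, was at 2.38 ± 1.09 and 4.62 ± 2.4 CPM, and Vwf, the blood clotting factor, at 0.83 ± 1.08 and 2.88 ± 2.48 CPM. Egfl7, a protein that endothelial cells secrete, was at 4.68 ± 0.966 and 4.16 ± 1.29 CPM (log2 change -0.17, SE 0.22). The part of endothelial cells in the Vcam1 result was not tested.

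Icam1, the ligand of the leukocyte integrin LFA-1, was at 3.05 ± 1.61 and 2.78 ± 1.49 CPM (log2 change -0.13, SE 0.42). It ran from 1.38 to 5.33 CPM in control mice and from 1.17 to 5.19 CPM in high-fat mice. Of its windows of 50 bases 18.6% occur in other transcripts on either strand.

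Most of the 34 genes varied more between the high-fat mice than between the controls. The coefficient of variation between mice had a median of 7.99% over the 34 genes in control mice and of 12.6% in high-fat mice, and it was larger on the high-fat diet for 23 of the 34 (67.6%). Over all genes tested the medians were 11.3% and 13.3%, and 59.6% of genes had the larger value on the high-fat diet. Whether the 34 genes differ from the rest in this was not tested. High-fat mouse 3 was the highest of the 10 mice for 11 of the 34 genes, among them Traf1, Birc2, Birc3, Cflar, Rel, Nfkbie and Ikbke. High-fat mouse 5 was the lowest for 7 and the highest for 4. It combined the highest Vcam1, Nfkbia, Nfkb1 and Nfkbib with the lowest Bcl3, Nfkbiz, Ikbke, Ikbkb, Ikbkg, Birc2 and Icam1.

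**Figure D5:**
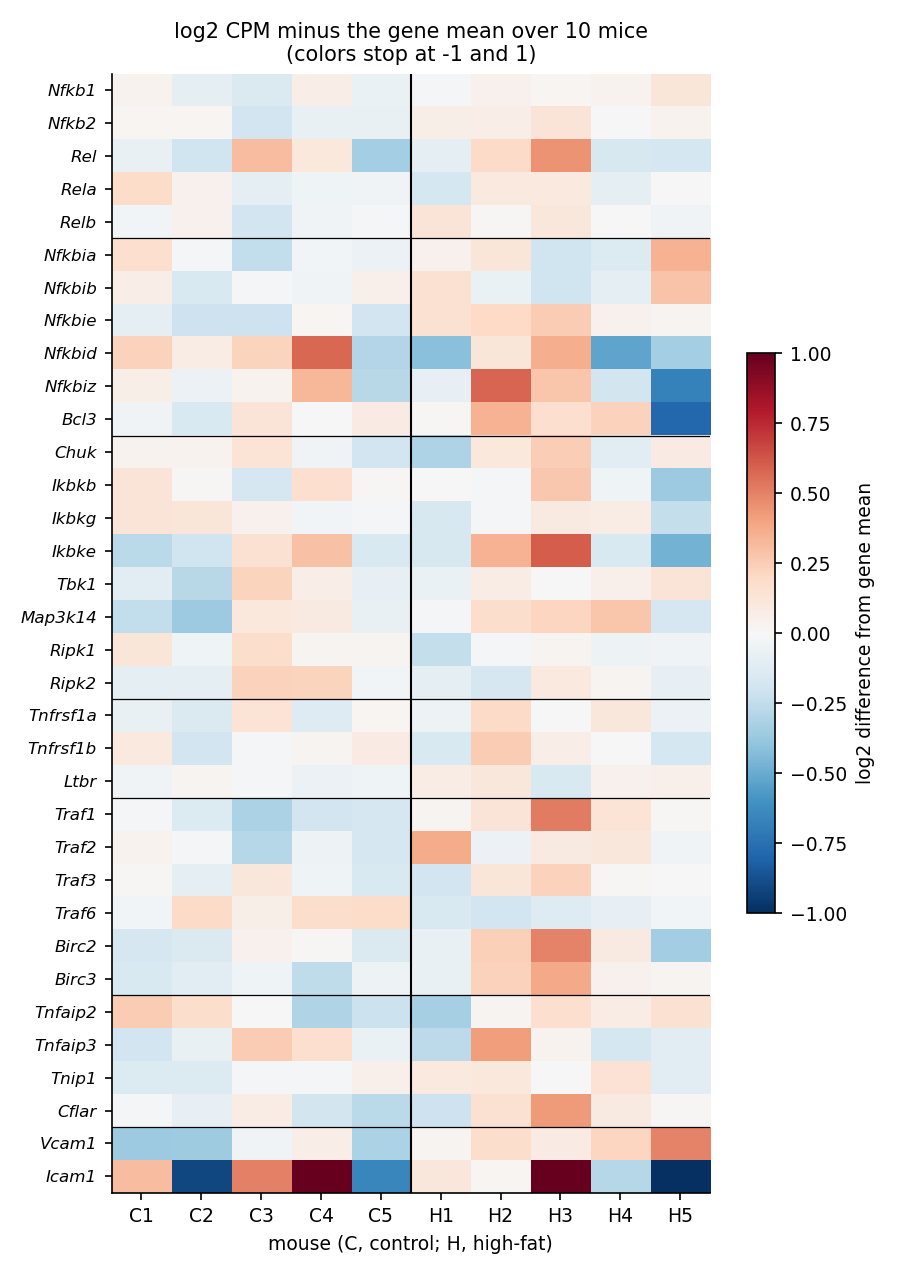
Log2 CPM of each tested gene in each mouse minus the gene's mean over the 10 mice (C, control; H, high-fat; horizontal lines separate the role classes, and colors stop at -1 and 1, which Icam1 exceeds). High-fat mouse 3 is red for many genes, and high-fat mouse 5 is blue for Bcl3, Nfkbiz, Ikbke and Icam1 but red for Vcam1 and Nfkbia.

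The genes were also read by whether a kappa B match lies near the start, without a test of the difference. Of the 10 with a match, all of which were tested, 1 (Nfkbie) had an unadjusted p under 0.05, the level that 12.1% of all genes reached, and the median log2 change was 0.08. Of the 18 tested genes with a window and no match, 3 did (Traf1, Traf6 and Birc3), and the median was 0.06. Nfkbie and Nfkbia, both shown above with a match within 150 bases of the start, had log2 changes of 0.27 and 0.08.

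Beyond these 36, other genes of the pathway were counted from 5 lists, 123 genes of which 93 were tested. At an unadjusted p under 0.05, 15 were higher and 18 lower, 35.5% of those tested against 12.1% of all genes, and 0 passed edgeR's adjusted threshold. All 5 lists were chosen with earlier results of these data known, so such shares cannot be read as a trait of the pathway. Much of the count came from the classical targets of NF-kB. Of these, 6 of 32 tested were higher (5.45% of all genes) and 12 lower (6.62% of all genes), with a median log2 change of -0.10. Cxcl16, a chemokine that is also shed from the cell surface, was at 7.15 ± 5.29 and 1.62 ± 0.453 CPM, and Il1b, an inflammatory cytokine, at 4.63 ± 2.79 and 1.4 ± 0.458 CPM. Ptgs2, the inducible prostaglandin synthase, was abundant and lower (230 ± 40.2 and 162 ± 25.4 CPM, log2 change -0.51, SE 0.13, adjusted p = 0.183). Il15, which sustains NK and memory T cells, was higher, at 6.21 ± 1.36 and 10.1 ± 1.87 CPM. The macrophage markers, lower on the same diet and highest in control mice 3 and 4, moved with Cxcl16, Il1b and Tlr2, and their part in these values was not tested.

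Without control mice 3 and 4, an alternative added after seeing the data, 11 of the other pathway genes passed the adjusted threshold. All are named here after their values were seen. At an unadjusted p under 0.05, 17 of the 93 were higher and 17 lower, where 15.7% of all genes were called, and 8 higher and 3 lower passed edgeR's adjusted threshold, where 1.89% of all genes passed. The 8 higher were the chemokine genes Ccl2 (log2 change 0.73, adjusted p = 0.0118) and Cxcl10 (0.96, adjusted p = 0.019), Il15 (0.95, adjusted p = 0.0179), Psmb9 (0.50, adjusted p = 0.0223), Irf1 (0.42, adjusted p = 0.0246), Traf5 (0.71, adjusted p = 0.0291), Usp18 (0.76, adjusted p = 0.0365) and Tap1 (0.39, adjusted p = 0.0465). Control mice 3 and 4 had the highest Traf5 of the controls (19.9 and 16.1 CPM). They also had the highest Usp18 (14.8 and 18.8 CPM), with control mouse 1 close at 14.8 CPM. Leaving them out widens both differences by construction. With all mice the log2 change of Usp18 was 0.54. No classical target had a change above 0.71 with all mice, so those of Ccl2, Cxcl10 and Il15 were widened too. Psmb9 and Tap1 serve antigen presentation, and Irf1 is a transcription factor of interferon responses. Exons of Psmb9 and Tap1 overlap each other on opposite strands, so their counts may share reads. Those of Cxcl10, Cxcl16, Il1b, Irf1 and Traf5 overlap other genes on the opposite strand, so these levels are less certain. The 3 lower were Ptgs2 (-0.62, adjusted p = 0.0452), Cxcl16 (-1.09, adjusted p = 0.0465) and Lif (-0.97, adjusted p = 0.0473), a cytokine of the interleukin-6 family. For Cxcl16 this change was smaller than that with all mice (-2.14). The changes of Il1b (-1.16 against -1.73 with all mice, adjusted p = 0.157) and Tlr2 (-0.78 against -1.61, adjusted p = 0.152) were smaller too and did not pass. Control mice 3 and 4 had the highest Tlr2 of the controls (5.83 and 8.61 CPM), so leaving them out shrinks its difference by construction. The part of macrophages in the smaller changes was not tested.

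Among the 28 tested adaptors of the receptor complexes, 4 were higher and 4 lower at an unadjusted p under 0.05, or 14.3% each against 5.45% and 6.62% of all genes. The 5 with the smallest p were as follows. Tab2, which tethers the kinase TAK1 to ubiquitin chains, was at 240 ± 21.9 and 201 ± 8.37 CPM (log2 change -0.26, SE 0.07). Map3k7, which encodes TAK1 itself, was at 75.9 ± 2.84 and 66.8 ± 1.62 CPM (log2 change -0.18, SE 0.06), and its diet groups did not overlap. Tbkbp1, an adaptor of TBK1, was at 65.9 ± 3.96 and 54.5 ± 5.61 CPM, and Tlr2, a Toll-like receptor for bacterial lipoproteins that is also among the classical targets, at 4.37 ± 2.82 and 1.43 ± 0.276 CPM. Both also separated the diets. Tlr2 was highest in control mice 4 (8.61 CPM) and 3 (5.83 CPM), the mice with the most macrophage marker RNA. Myd88, the adaptor upstream of TRAF6, was higher, at 47.4 ± 3.1 and 55.1 ± 3.18 CPM (log2 change 0.22, SE 0.07). Its exons overlap Acaa1a on the opposite strand, so its level is less certain. The edgeR adjusted p of these 5 lay between 0.175 and 0.238.

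The ubiquitin machinery had 3 genes higher (18.8%) and 1 lower (6.25%) of 16 tested at an unadjusted p under 0.05, against the same 5.45% and 6.62%. Rnf31, the catalytic subunit HOIP of the linear ubiquitin ligase, was at 60.1 ± 3.56 and 69.9 ± 4.61 CPM, and its diet groups did not overlap. Spata2, which brings the deubiquitinase CYLD to that ligase, was at 70.1 ± 1.34 and 61.7 ± 3.84 CPM, and its groups did not overlap either. Usp18, an interferon-induced protease for ISG15, was at 13.9 ± 3.63 and 20.3 ± 1.95 CPM, and Ube2v1, a partner in building ubiquitin chains, at 2.05 ± 0.533 and 2.73 ± 0.151 CPM. Exons of Rnf31 overlap Irf9, and those of Ube2v1 overlap Gm20431, each on the same strand. Those of Ube2v1, Spata2 and Usp18 overlap genes on the opposite strand, so these levels are less certain.

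Other receptors of the TNF superfamily had 2 genes higher and 1 lower of 13 tested, and the ligands 0 higher and 1 lower of 5 tested, at an unadjusted p under 0.05 that 5.45% and 6.62% of all genes reached. These lists are too short for such shares to be read. Fas, a death receptor, was at 12.4 ± 0.971 and 16.7 ± 3.76 CPM, Tnfrsf23, a decoy receptor, at 17.5 ± 0.917 and 21.1 ± 3.72 CPM, and Tnfrsf21, known as death receptor 6, at 1.08 ± 0.466 and 0.586 ± 0.293 CPM. Tnfsf9, the ligand of 4-1BB, was at 20.8 ± 2.54 and 17.6 ± 2.1 CPM. Of the 16 ligand genes 11 did not pass the expression filter.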

How the data were processed

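RNA was sequenced from sorted MC38 cells of 10 mice, 5 per diet. The values used are raw counts per gene as deposited by the authors. Per the submitters' processing notes, BWA 0.7.12, cutadapt 1.15, FastQC 0.11.5 and DESeq2 1.24.0 were used, and GRCm38 and mm10 are listed as builds, without saying at which step. How reads were counted, and whether by strand, is not given in the labels, so reads of opposite-strand partners cannot be told apart. Symbols, coordinates and lengths came from GENCODE M21 (53274 of 53379 identifiers matched, version ignored), promoters from RefSeq.

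The main test was edgeR's quasi-likelihood test (edgeR 4.0.16, R 4.3.3) of diet alone, two-sided and robust, after TMM scaling and the filterByExpr filter (14337 genes, 99.9% of counts), with a Benjamini-Hochberg threshold of 0.05. The script was tested on simulated data. Standard errors are the absolute change over the square root of F. CPM use TMM-scaled library sizes. Alternatives were DESeq2 1.42.0, limma-voom (limma 3.58.1), other scalings and filters, a replicate block, library size as a covariate, and each mouse left out. All pairs of libraries differed by more than sampling noise (lowest chi-square per gene 8.23).

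The 36 genes and the lists were chosen with earlier results of these data known. All 36 are named. Values per mouse are given for genes with an unadjusted p under 0.05 or diets that do not overlap, the highest per kilobase of each class, and Tnf, Rela, Nfkb1 and Nfkbia. Of other lists, up to 5 genes with the smallest p under 0.05 are named. The marker lists, named for pan-leukocyte, macrophage, T and NK, B, dendritic, neutrophil, endothelial, fibroblast, pericyte, adipocyte and epithelial cells, are described by summed CPM.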

Additional observations from a re-analysis of the deposited data

Results flagged for a closer look

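Traf1 in high-fat mouse 3 stood far from the other mice of its diet, at 106 CPM against 74.4 to 81.2 CPM in the other 4. It was the single such case among 72 groups of 5 mice checked over the 36 genes, where chance gives about 5% of groups. The same mouse was highest of the 10 for 11 of the 34 tested genes, and without it the log2 change of Traf1 was 0.24 in place of 0.34.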

How the results depend on the processing

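The number of genes past the threshold over all genes was 9. It was 53 without the low-count filter, 316 with DESeq2, 5 with limma-voom, 16 with the replicate block, 0 with library size as a covariate (817 at an unadjusted p under 0.05), 1 to 27 with each mouse left out (1 without control mouse 1, control mouse 5 or high-fat mouse 4, 2 without control mouse 4, high-fat mouse 2 or high-fat mouse 3, 4 without control mouse 2, 21 without high-fat mouse 1, 27 without control mouse 3), and 276 when control mice 3 and 4 were both left out, which was added after seeing the data. Of the 36 genes 0 passed, against 2 with DESeq2, 1 without control mice 3 and 4, and 0 in each fit that left out 1 mouse. At an unadjusted p under 0.05, 4 were higher (5.45% of all genes), against 2 with the library size covariate (2.41% of all genes). With each mouse left out 4 to 8 were higher, where 3.54% to 7.03% of all genes were. The 8 came without high-fat mouse 5 (6.69% of all genes). 1 was lower (6.62% of all genes), against 0 with the covariate (3.29% of all genes). The count was 3 without the filter, where Tnf and Cd40 enter and 4.54% of all genes were lower. It was 1 to 2 with each mouse left out, where 4.92% to 7.86% of all genes were lower. The 2 came without high-fat mouse 3 (5.78% of all genes), where Nfkbid joins Traf6. Vcam1, Nfkbie, Traf1, Birc3 and Traf6 were picked for a small p in the same libraries. That they kept their direction in all 19 alternatives is therefore no independent support. With each mouse left out their log2 changes ran from 0.32 to 0.47, 0.24 to 0.31, 0.24 to 0.38, 0.18 to 0.3 and -0.27 to -0.21 in that order, at edgeR adjusted p between 0.121 and 0.534.

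Small changes reversed in 14 genes, 46 of 646 values, with none past the threshold on either side; the cause was not tested. With library size as a covariate the log2 change was -0.02 for Rel, -0.05 for Bcl3, -0.004 for Chuk, -0.04 for Tnfrsf1b, -0.05 for Tnfaip2 and 0.07 for Tnfaip3. With limma-voom it was -0.04 for Nfkbiz, -0.01 for Bcl3 and -0.002 for Tnfrsf1b, and with the replicate block -0.03, -0.004 and -0.002. Without control mice 3 and 4 it was 0.03 for Ripk2, -0.06 for Tnfaip2, 0.11 for Tnfaip3 and 0.42 for Icam1. With each mouse left out the changes ran from -0.03 to 0.18 for Rel, -0.05 to 0.02 for Rela, -0.01 to 0.13 for Nfkbia, -0.03 to 0.09 for Nfkbib, -0.15 to 0.15 for Nfkbiz, -0.04 to 0.19 for Bcl3, -0.05 to 0.09 for Chuk, -0.13 to 0.03 for Ikbkb, -0.06 to 0.22 for Ikbke, -0.06 to 0.05 for Tnfrsf1b, -0.04 to 0.11 for Tnfaip2, -0.15 to 0.04 for Tnfaip3 and -0.48 to 0.17 for Icam1. Same-numbered mice of the diets share only a number: their deviations correlated at 0.225, -0.36, 0.333, -0.0733 and 0.147, and 1 of 5 control mice matched its own number best. The level per kilobase moved by more than the spread between mice for 26 of the 36 genes when the longest transcript set the length. With 5 mice per diet and nothing on cages or litters, p-values measure the spread between these mice.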

Other observations

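The endothelial selectins Selp and Sele, adhesion genes that NF-kB induces in vessels, were chosen for mention after their values were seen. Both lay below the expression filter. Selp had 1, 0, 0, 3 and 0 counts in control mice 1 to 5 and 13, 6, 24, 0 and 5 in high-fat mice 1 to 5. Sele had 0, 0, 2, 1 and 0 counts in control mice and 7, 0, 22, 2 and 0 in high-fat mice. High-fat mouse 3 was the highest for both genes, and it also had the highest sum of endothelial markers, at 46.5 CPM. With the filter lifted the edgeR log2 change was 3.49 (SE 1.00, adjusted p = 0.265) for Selp and 3.21 (SE 1.32, adjusted p = 0.538) for Sele.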
